A study of Mus musculus with 3 samples.

Results

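The adhesion molecules and integrins of blood leukocytes were followed through 9 listed genes among the 32285 genes of the count tables: Pecam1, Spn, Selplg, Itgal, Itgam, Itgax, Itgb2, Itga4 and Itgb1. The members were chosen by name, and all 9 were found in each of the 3 libraries. Peripheral blood (PB) cells of Balb/C mice were measured by scRNA-Seq in a naive library (wild type, not engrafted) and in leukemic libraries taken 11 days (D11) and 14 days (D14) after engraftment of BBC2 cells. BBC2 is a pro-B-like leukemia line that carries the BCR-FGFR1 fusion kinase and GFP, and it models the acute phase of stem cell leukemia and lymphoma syndrome (SCLL) as a single line. The engrafted animals were female Balb/C mice of 6 to 8 weeks, and in all samples red cells were lysed and dead cells taken out before capture. How many mice went into each library is not given in the sources used here. Each condition was 1 library, so that nothing could be checked between replicates, no test was made, and a difference between conditions cannot be told apart from a difference between libraries.

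Leukocytes leave the blood in steps, in which selectins catch rolling cells by their sialomucin ligands, integrins then hold them to the vessel wall, and homophilic contacts guide them between endothelial cells. Integrins are pairs of an alpha and a beta chain that bind weakly at rest and strongly once talin and kindlin reach the beta tail. Itgb2 codes for the beta2 chain, which pairs with the alpha chains of Itgal (LFA-1, a receptor for ICAMs), Itgam (Mac-1, which also binds complement fragments) and Itgax (CD11c), whereas Itga4 and Itgb1 together make VLA-4, a receptor for VCAM-1 and fibronectin. Non-classical monocytes are known for crawling along vessel walls by LFA-1, and classical monocytes for entering inflamed tissue.

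Cells were sorted into classes by fixed marker genes, none of which is a member, and every class name therefore ends in "-like". Of 5386 naive, 8536 D11 and 9337 D14 barcodes, 3811, 4567 and 4414 passed the limits of 200 detected genes or more and 10% or less of mitochondrial UMIs (unique molecular identifiers, the count of distinct transcripts), and 3513, 4126 and 3523 of these met 1 gate. The library totals were 30362408, 57640396 and 65861863 UMIs. Between 3 and 5 kept barcodes were shared by a pair of libraries. There were 137, 223 and 641 non-classical monocyte-like (ncMono-like) cells, 148, 246 and 133 classical monocyte-like (cMono-like) cells, and 1299, 1635 and 1325 neutrophil-like cells. NK-like cells numbered 202, 200 and 55, and T-like cells 1257, 279 and 115. B-like cells were compared in the naive library (399) and at D11 (272), and pro-B-like cells at D11 (91) and D14 (588), since the other sums held fewer than 50 cells. The naive library held 1 pro-B-like cell and the D14 library 41 B-like cells. The 10 leading genes of each class held 3 to 5 markers of that class and 0 of another. The gates themselves favor this, since they use the same markers, so it is no separate check of the class names. Levels are UMIs summed over a class in a library, as their share of all UMIs of that sum on the CPM scale, and brackets hold exact 95% intervals, which cover counting error only.

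The genes lie on 6 chromosomes, and 4 of them, Spn, Itgal, Itgam and Itgax, lie within 1018426 bases of chromosome 7 (GRCm38, GENCODE vM21). Spn is at chr7:127132232-127137823 on the minus strand, and Itgal at chr7:127296260-127335138, Itgam at chr7:128062640-128118491 and Itgax at chr7:128129547-128150657 are on the plus strand. The other members are Itga4 at chr2:79255426-79333123 and Itgb1 at chr8:128685654-128733200 and Itgb2 at chr10:77530252-77565708 on the plus strand, and Selplg at chr5:113818536-113832644 and Pecam1 at chr11:106654217-106750628 on the minus strand. Only Itga4 overlaps another gene of the count tables (Cerkl, on the other strand), and whether reads were assigned by strand is not given in the sources used here. Over the 21 class-by-library sums the levels of Itgam and Itgax had r = 0.805, although Itgam was about as high in cMono-like as in ncMono-like cells and Itgax was not. Itgam had a higher r with Itgb2 (0.902) and Itgal (0.860), and Itgax with Itgb2 (0.813). Itgam and Itgax are neighbours with 11055 bases between them. The 250 bases before the RefSeq start of each (GRCm38.p6, gene strand) are printed with those of Spn, the other member of the region with a window, and capitals mark every GAGGAA (the core of the PU.1 motif), TGTGGT (the Runx core) and GGGCGG (the Sp box) on either strand.
Itgam, chr7:128062390-128062639, plus strand: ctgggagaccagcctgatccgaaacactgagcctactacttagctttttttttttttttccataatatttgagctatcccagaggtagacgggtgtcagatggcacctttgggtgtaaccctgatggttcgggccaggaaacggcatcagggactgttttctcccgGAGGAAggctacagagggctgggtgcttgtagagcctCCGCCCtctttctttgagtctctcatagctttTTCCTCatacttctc
Itgax, chr7:128129300-128129549, plus strand: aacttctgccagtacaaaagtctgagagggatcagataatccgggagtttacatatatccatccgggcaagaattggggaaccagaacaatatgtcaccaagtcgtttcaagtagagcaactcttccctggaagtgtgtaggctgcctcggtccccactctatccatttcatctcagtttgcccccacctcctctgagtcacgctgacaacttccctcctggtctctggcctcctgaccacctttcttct
Spn, chr7:127137824-127138073, minus strand: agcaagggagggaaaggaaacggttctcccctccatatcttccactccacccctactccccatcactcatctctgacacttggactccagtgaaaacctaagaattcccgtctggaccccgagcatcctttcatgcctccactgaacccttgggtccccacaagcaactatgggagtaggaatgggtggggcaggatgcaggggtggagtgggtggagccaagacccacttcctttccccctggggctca
The Itgam window held GAGGAA once on each strand and GGGCGG once, read as CCGCCC, with no overlap between them. The Itgax and Spn windows held none of the 3 motifs. Of all 32851 RefSeq windows of this length, 23.3% held GAGGAA, 14.0% TGTGGT and 32.7% GGGCGG, so the matches are a description of letters and not of sites. Windows were also found for Itga4 and Itgb1.

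Each class had its own set of adhesion transcripts, and the ncMono-like class carried all 9. NK-like cells did too, in naive blood from 52.4 CPM (Itgax) to 1481 CPM (Itga4). The ncMono-like level was the highest of the compared classes in each library for Spn, Itgal, Itgax, Itgb2 and Itga4. Neighbours in the order were not always apart beyond counting error. Neutrophil-like cells had the highest Selplg and Itgam levels, and T-like or NK-like cells the highest Itgb1 levels. Erythroid-like cells had at most 12.5 CPM of any member, but hemoglobin genes held 91.2% and 89.2% of their UMIs at D11 and D14. That share lowers the CPM of every other gene, so these levels cannot serve as a background for the other classes.

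**Figure D1:**
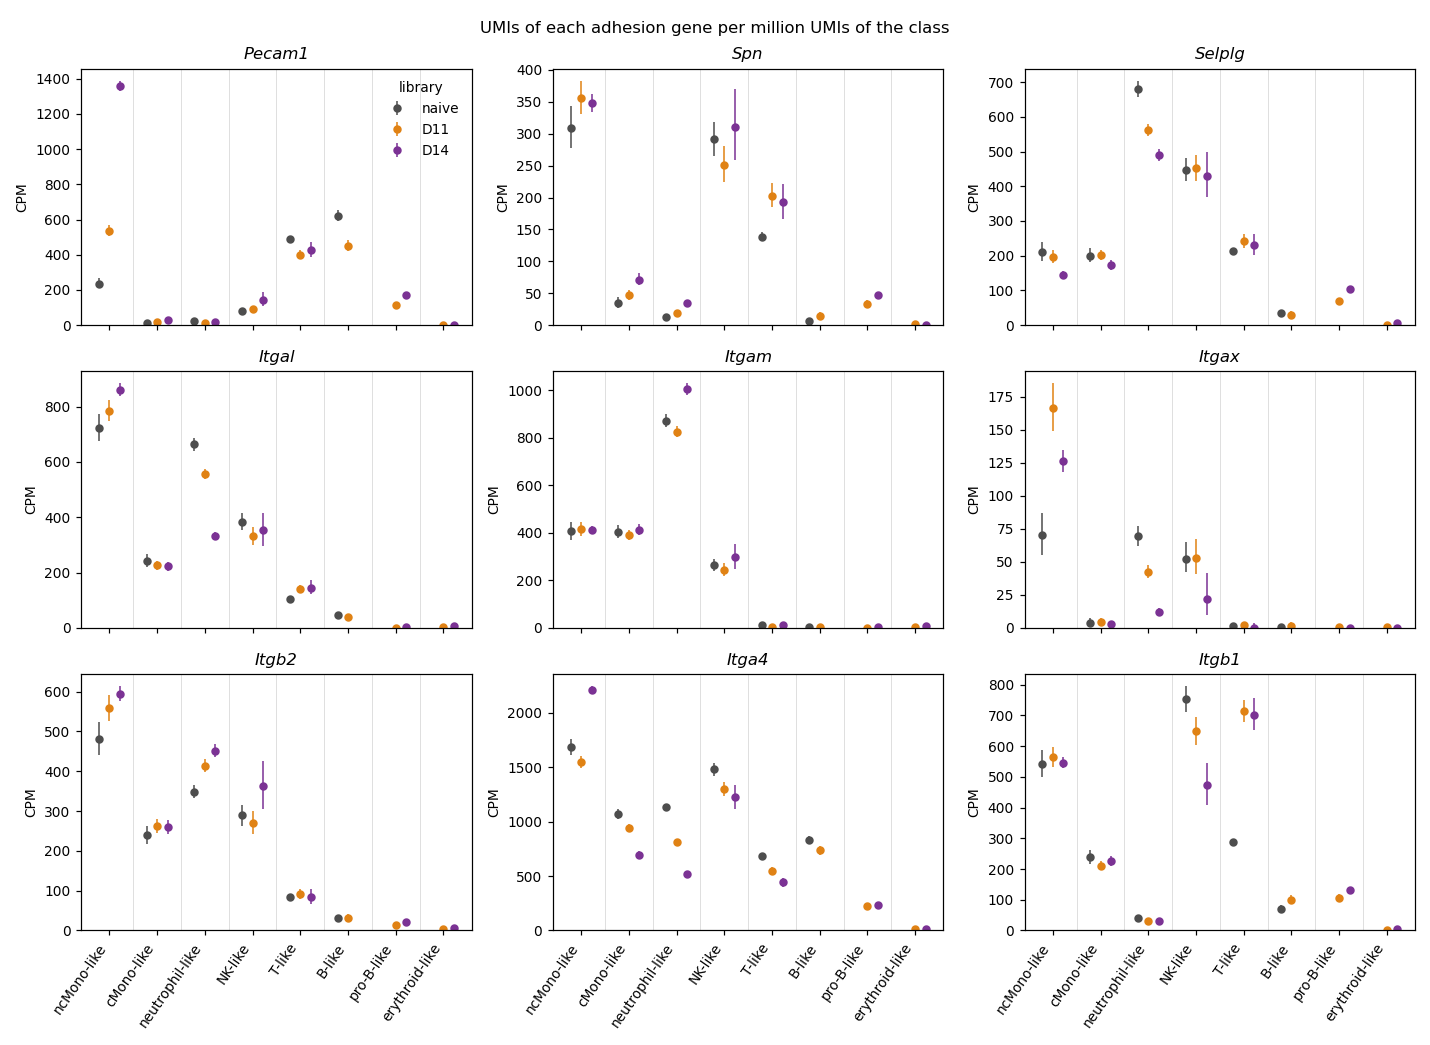
Level of each of the 9 genes in CPM (vertical axis, linear from 0) in each class with at least 50 cells (horizontal axis), with 1 point per library (naive, D11, D14) and bars for the exact Poisson 95% interval. Pecam1 in ncMono-like cells stands at 236, 536 and 1359.7 CPM, Itgax is highest in ncMono-like cells at D11 and D14, and Itgb1 in T-like cells stands at 287, 714 and 703 CPM.

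Pecam1 codes for PECAM-1 (CD31), a homophilic receptor at endothelial junctions, on platelets and on leukocytes. In naive blood its order was B-like (622 CPM), T-like (488), ncMono-like (236) and NK-like (78.5), and each differed from the next beyond counting error. Neutrophil-like and cMono-like cells followed at 22.0 and 15.2 CPM and did not differ from each other by that measure. At D11 and D14 the ncMono-like level was the highest.

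Spn and Selplg code for the sialomucins CD43 and PSGL-1, the latter being the main ligand of P-selectin on leukocytes. Spn was led by ncMono-like cells (309.6, 356 and 348 CPM in the naive, D11 and D14 libraries) and NK-like cells (291, 251 and 311), whose levels were apart at D11 only. T-like cells followed with 139, 203 and 192 CPM, and B-like cells had 6.71 and 14.1 CPM in the naive and D11 libraries. Selplg had another order, with neutrophil-like cells at 679.9, 562 and 489.9 CPM and NK-like cells at 448, 452 and 431 CPM, which were not apart at D14. The monocyte-like classes were not apart for Selplg in the naive and D11 libraries.

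Among the genes of the beta2 integrins, Itgal was highest in ncMono-like cells (723, 785 and 861 CPM) and next in the naive and D11 libraries in neutrophil-like cells (663, 556 and 332), whose D14 level was not apart from the NK-like one (353). Itgam was highest in neutrophil-like cells (872, 826 and 1004 CPM), and the ncMono-like (408, 415 and 412) and cMono-like (405, 390.2 and 413) levels were not apart in any library. Itgax was shared by ncMono-like (69.9 CPM) and neutrophil-like cells (69.4 CPM) in naive blood, whereas at D11 and D14 the ncMono-like level stood above all others. The common chain Itgb2 had the order ncMono-like, neutrophil-like, NK-like and cMono-like in each library, the last pair not being apart at D11.

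Itga4 was found in every leukocyte class, from 1684 CPM in ncMono-like to 684 CPM in T-like cells of the naive library, and its level in CPM was lowest in pro-B-like cells (226 and 232 CPM at D11 and D14) among leukocyte classes. Pro-B-like cells were the deepest, and per cell they had 7.67 Itga4 UMIs at D11, against 4.61 in B-like cells. Itgb1 was nearly missing from neutrophil-like cells (41.6, 30.6 and 31.4 CPM), which did carry Itga4 (1133, 813 and 523 CPM). In naive blood Itgb1 was highest in NK-like cells (752 CPM), and at D11 and D14 in T-like cells.

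Within the monocytes, several of the genes separated the ncMono-like from the cMono-like class in each library. At least 2-fold higher in ncMono-like cells were 5 of the 8 members whose mean over both sums reached 50 CPM (the minimum used throughout) in the naive library (Pecam1, Spn, Itgal, Itgb2 and Itgb1), 6 of 9 at D11 (Itgax besides) and 7 of 9 at D14 (Itgax and Itga4 besides), and 0 were lower. The naive count was 3 with TMM factors, with classes from clusters or with a minimum of 200 CPM. The background was large, since 18.6%, 15.5% and 21% of all genes over that minimum differed at least 2-fold in either direction. The median log2 ratio of the members was 1.10, 1.42 and 1.67, against 0.15, 0.11 and 0.19 over all such genes.

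Pecam1 showed a wide gap, with 15.2, 16.3 and 30.1 CPM in cMono-like cells in the naive, D11 and D14 libraries and log2 ratios of 3.96 [3.41 to 4.57], 5.04 [4.65 to 5.46] and 5.50 [5.20 to 5.81]. For Spn the cMono-like levels were 35.0, 46.9 and 71.5 CPM and the log2 ratios 3.14 [2.76 to 3.54], 2.92 [2.67 to 3.18] and 2.28 [2.08 to 2.49]. Itgax had only 7, 16 and 8 UMIs in cMono-like cells, and its log2 ratio was 4.25 [3.14 to 5.62] in the naive library, where its mean was under the minimum, 5.13 [4.41 to 5.95] at D11 and 5.56 [4.57 to 6.78] at D14. The Itgax ratios thus rest on few counts in cMono-like cells, where Spn, in contrast, had 67, 158 and 214 UMIs. Itgal was 2.98-, 3.47- and 3.88-fold higher in ncMono-like cells and its partner Itgb2 2.01-, 2.13- and 2.3-fold. In contrast, the log2 ratio of Itgam was 0.011, 0.089 and -0.0031, and that of Selplg 0.072, -0.029 and -0.25, of which only the last interval (-0.25 [-0.41 to -0.094]) left out 0.

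**Figure D2:**
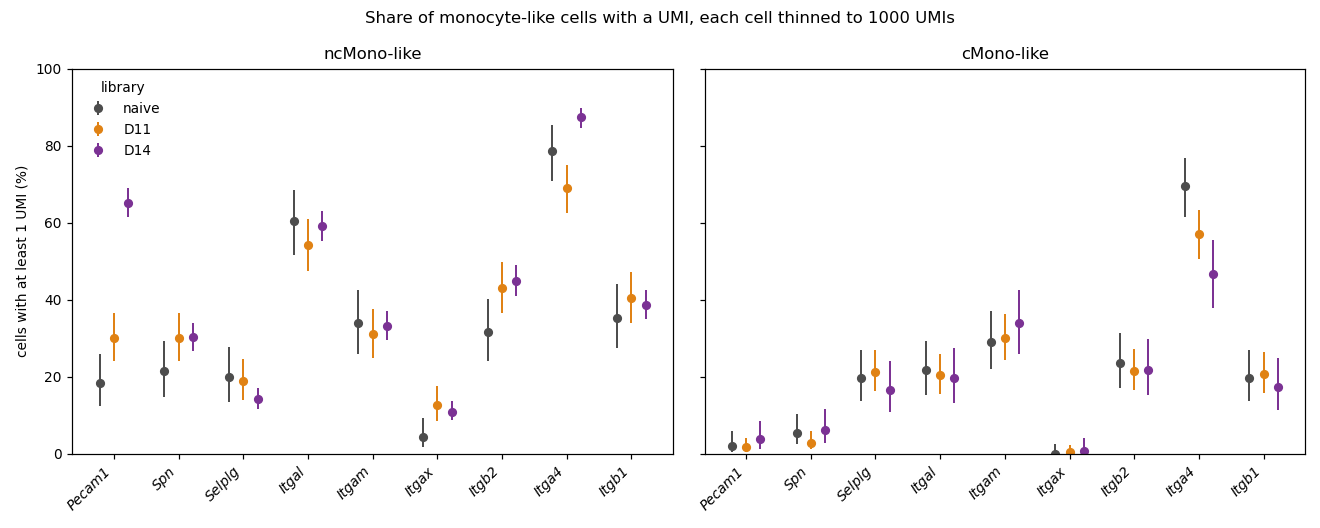
Percent of ncMono-like (left) and cMono-like (right) cells with at least 1 UMI of each gene after every cell was thinned to 1000 UMIs, by library, with Clopper-Pearson 95% intervals. The share of ncMono-like cells with Pecam1 stands at 18.4%, 30.04% and 65.2% in the naive, D11 and D14 libraries and that of cMono-like cells at 2.03%, 1.63% and 3.76%.

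For some of these genes the share of cells with a UMI also differed. To compare cells of unequal depth, each cell was thinned to 1000 UMIs, which left out 1 naive ncMono-like cell. Pecam1 was then found in 18.4% [12.3 to 25.9], 30.04% [24.1 to 36.5] and 65.2% [61.4 to 68.9] of ncMono-like cells and in 2.03% [0.42 to 5.81], 1.63% [0.445 to 4.11] and 3.76% [1.23 to 8.56] of cMono-like cells. Erythroid-like cells had Pecam1 in 0% and 0.166% of cells at D11 and D14. Since 91.2% and 89.2% of their UMIs were of hemoglobin genes, few of the 1000 UMIs were left for other genes. These shares therefore cannot serve as a background of equal depth. Without thinning the ncMono-like shares were 43.1%, 65.5% and 94.7% and the cMono-like ones 14.9%, 13.4% and 25.6%, at median depths of 8013, 8188 and 9364 UMIs against 12825, 13636.5 and 20842. Itgal was found in 60.3%, 54.3% and 59.1% of thinned ncMono-like and 21.6%, 20.3% and 19.5% of thinned cMono-like cells. For Itgb2 the naive shares of 31.6% [23.9 to 40.1] and 23.6% [17.1 to 31.3] overlapped at this depth. With cells thinned to 3000 UMIs they were 75.0% [66.6 to 82.2] and 55.6% [47.1 to 63.8] and did not overlap.

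In leukemic blood Pecam1 was higher in ncMono-like cells at both times, and at D14 it had the largest ratio of the members. Its level was 236 [209 to 266], 536 [505 to 569] and 1359.7 [1332 to 1388] CPM in the naive, D11 and D14 libraries. The 3 intervals did not overlap and followed the order of the days. Relative to naive this was 2.27-fold at D11 (log2 ratio 1.18 [0.99 to 1.38]) and 5.76-fold at D14 (log2 ratio 2.53 [2.35 to 2.71]), above 99.6% and 99.5% of the genes over the minimum. In the thinned cells given above, the D14 interval lay above the others, and the naive and D11 intervals overlapped.

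Other cell types that express Pecam1 were looked for by their markers in the same cells. The summed level of 7 platelet markers was 13.3, 1.96 and 2.69 CPM, with 3, 5 and 3 of them at 0, and that of 7 B markers was 142, 60.8 and 62.8 CPM, with 0, 1 and 1 at 0. The 7 pro-B markers summed to 1.77, 1.96 and 44.1 CPM, with 6, 4 and 2 at 0, while Pecam1 stood at 172 CPM in pro-B-like cells of D14. Without the cells that had any UMI of these 3 lists, Pecam1 was 195, 554 and 1377 CPM in 85, 154 and 429 cells, and the log2 ratios over naive were 1.51 [1.23 to 1.79] for D11 and 2.82 [2.57 to 3.08] for D14. Hemoglobin genes held 0.0169%, 2.2% and 0.948% of ncMono-like UMIs in the naive, D11 and D14 libraries, and the part of any of these markers in the Pecam1 level beyond the values given was not tested.

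Itgax, which codes for CD11c, a chain known from dendritic cells and non-classical monocytes, was the other member past 2-fold in ncMono-like cells. Its levels were 69.9 [55.3 to 87.1], 166 [149 to 185] and 126 [118 to 135] CPM from 79, 339 and 843 UMIs. Both leukemic levels were above the naive interval, D11 being the higher. The log2 ratios over naive were 1.25 [0.89 to 1.62] for D11 and 0.85 [0.52 to 1.202] for D14, where it was under 2-fold. The 5 conventional dendritic markers summed to 13.3, 11.8 and 7.17 CPM in these cells, with 3 of the 5 at 0 in each library.

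In total, 2 of 9 members were past 2-fold in ncMono-like cells at D11, where 1.76% of all 3635 genes over the minimum were, and 1 of 9 at D14, against 4.97%. The median of the members was 0.12 at D11 and 0.25 at D14, and over all genes -0.052 and 0.015. Spn, Itgam and Itgb1 differed little, with log2 ratios at D14 of 0.17 [0.0042 to 0.33], 0.015 [-0.13 to 0.16] and 0.0089 [-0.11 to 0.13]. The LFA-1 pair was slightly higher at D14, Itgal with 0.25 [0.15 to 0.36] and Itgb2 with 0.31 [0.18 to 0.44]. Itga4 was lower at D11 (-0.12 [-0.20 to -0.038]) and higher at D14 (0.39 [0.32 to 0.46]). Selplg was the only member whose D14 level lay below naive beyond counting error, at 211, 198 and 146 CPM in the 3 libraries, a D14 ratio of -0.53 [-0.74 to -0.32] on the log2 scale.

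**Figure D3:**
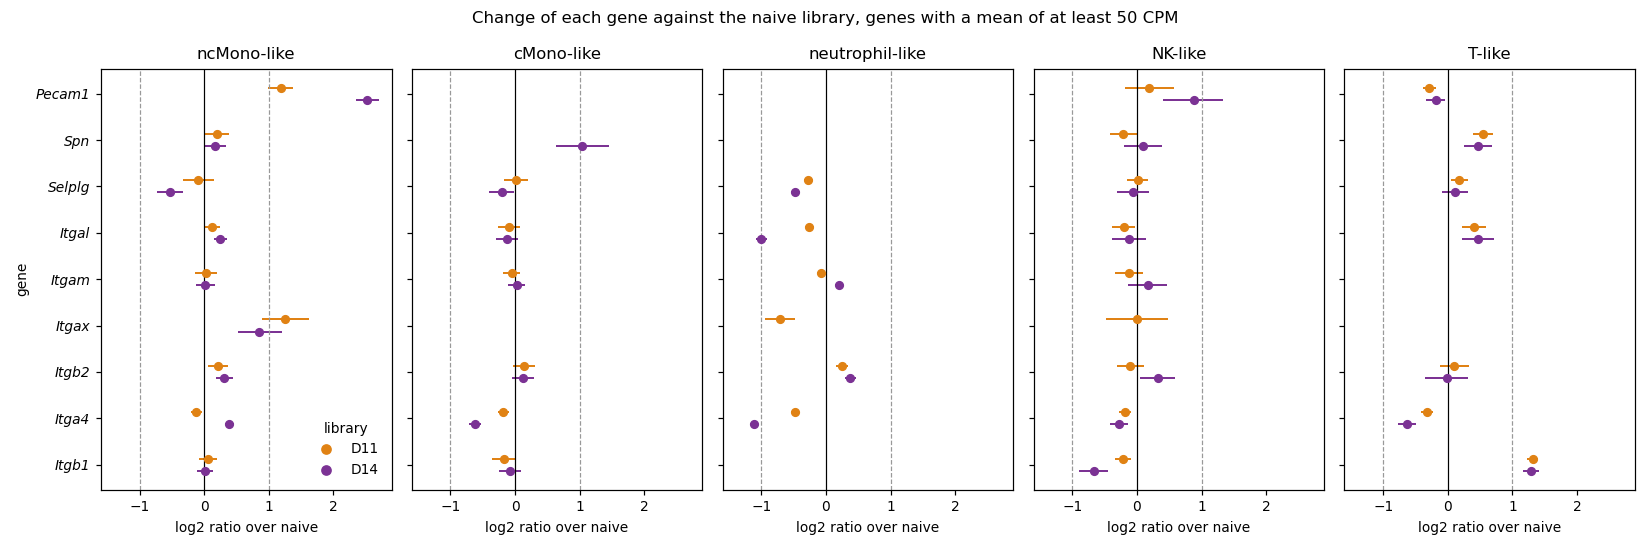
Log2 ratio of each gene at D11 and D14 over naive in 5 classes (horizontal axes), for genes whose mean over both sums reached 50 CPM. Bars are exact conditional binomial 95% intervals and dashed lines mark 2-fold. Pecam1 in ncMono-like cells (1.18 and 2.53) and Itgb1 in T-like cells (1.31 and 1.29) lie beyond the upper line, and Itga4 in neutrophil-like cells at D14 (-1.12) beyond the lower one.

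In cMono-like cells the members moved little at D11, when 0 of 6 were past 2-fold (0.984% of all genes). At D14 Spn was, as 1 of 7 members, against 6.18% of all genes. Spn stood at 35.0 [27.2 to 44.5], 46.9 [39.9 to 54.8] and 71.5 [62.2 to 81.7] CPM, so the D14 level was above the naive interval, and the log2 ratio of 1.03 [0.63 to 1.45] was just past 2-fold. With DESeq2 size factors it was 0.98 and with classes from clusters 0.83, both under 2-fold. The ncMono markers summed to 344, 377 and 491 CPM in cMono-like cells. The 8 neutrophil markers of the gate hardly differed there, with sums of 350, 340 and 357 CPM. S100a8 and Mpo, transcripts found in neutrophils and their precursors but not among these 8, stood at 286, 829 and 3405 and 0, 1.78 and 21.7 CPM. The part of any of these transcripts in the Spn level was not tested. Pecam1, under the minimum at 15.2, 16.3 and 30.1 CPM, had a D14 ratio of 0.99 [0.37 to 1.64]. Among the genes over the minimum Itga4 came after Spn in the size of its ratio, with 1072, 945 and 696 CPM in the 3 libraries, and its D14 ratio (-0.62 [-0.71 to -0.53]) was opposite in sign to that in ncMono-like cells. Itgal, Itgam, Itgb2 and Itgb1 had log2 ratios between -0.13 (Itgal) and 0.12 (Itgb2) at D14, each with an interval that held 0.

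The makeup of the beta2 integrin transcripts differed between classes and, in neutrophil-like and ncMono-like cells among others, between libraries. As a share of the summed UMIs of Itgal, Itgam and Itgax, Itgal held 60.2% [57.5 to 62.8], 57.5% [55.6 to 59.3] and 61.5% [60.5 to 62.5] in ncMono-like and 37.3% [34.6 to 40.0], 36.4% [34.4 to 38.5] and 34.8% [32.7 to 37.0] in cMono-like cells of the naive, D11 and D14 libraries. The 2 monocyte classes did not overlap in any library. In neutrophil-like cells the Itgal share was 41.3% [40.2 to 42.4], 39.0% [38.0 to 40.0] and 24.6% [23.7 to 25.5] and the Itgam share 54.3% [53.2 to 55.5], 58.0% [57.0 to 59.0] and 74.5% [73.5 to 75.4], with the D14 intervals away from both others. Cells with a UMI of the granule genes Ltf, Camp or Ngp made up 6.47%, 27.8% and 66.0% of this class. Their part in these shares was not tested. The Itgax share of ncMono-like cells was 5.82% [4.64 to 7.2], 12.2% [11.0 to 13.4] and 9.01% [8.43 to 9.6], and that of neutrophil-like cells 4.33% [3.88 to 4.81], 2.98% [2.65 to 3.34] and 0.914% [0.723 to 1.14]. Within each of these classes the Itgax intervals of the libraries did not overlap. Shares are within 3 genes of unequal length, and are compared here between classes and libraries, not between genes.

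**Figure D4:**
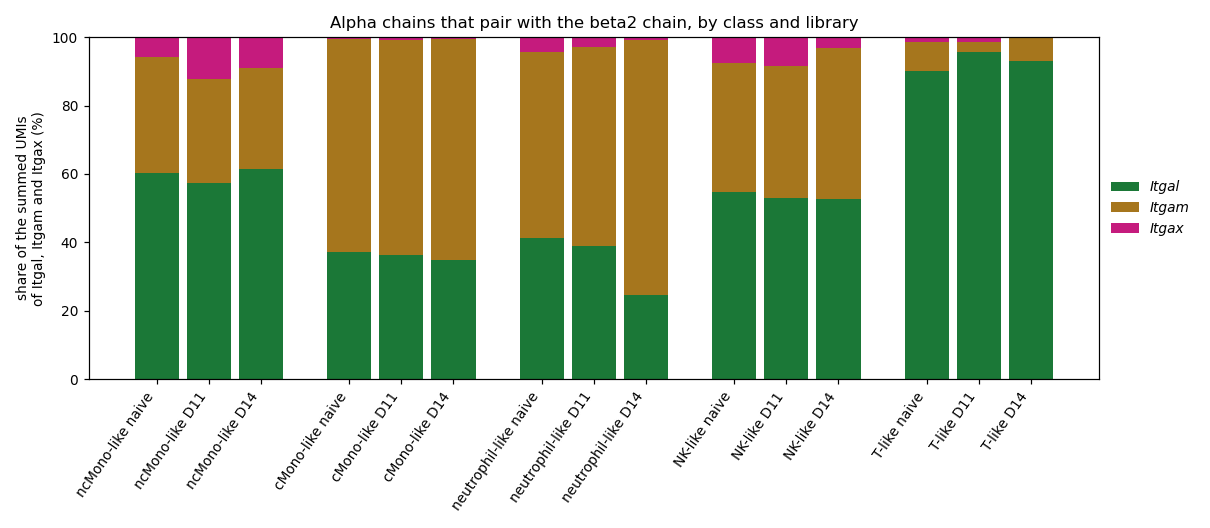
Share of Itgal, Itgam and Itgax in the summed UMIs of these 3 genes (vertical axis, percent) for 5 classes in each library. In ncMono-like cells Itgal holds 60.2%, 57.5% and 61.5%, in cMono-like cells 37.3%, 36.4% and 34.8% and in neutrophil-like cells 41.3%, 39.0% and 24.6% in the naive, D11 and D14 libraries.

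In neutrophil-like cells Itga4 and Itgal were lower in leukemic blood. The levels of Itga4 were 1133 [1103 to 1164], 813 [791 to 835] and 523 [505 to 541] CPM and its log2 ratios -0.48 [-0.53 to -0.42] at D11 and -1.12 [-1.18 to -1.05] at D14. Itgal stood at 663 [641 to 687], 556 [538 to 574] and 332 [318 to 346] CPM, and its D14 ratio of -0.9996 [-1.08 to -0.92] came out just under 2-fold. For both genes the 3 intervals did not overlap and followed the order of the days. As the only member past 2-fold at D14, Itga4 was 1 of 5 over the minimum, against 15.7% of all 2772 genes, and at D11 there were 0 of 6 against 2.7%. The median over all genes was itself -0.24 at D14, and with TMM or DESeq2 factors, which moved all ratios by 0.18 and 0.20, Itga4 was no longer past 2-fold (-0.94 and -0.91). Itgax had 69.4, 42.5 and 12.3 CPM and a mean under the minimum at D14, with a log2 ratio of -2.49 [-2.87 to -2.14]. In contrast, Itgb2 was higher (0.37 [0.29 to 0.46]) and Itgam too (0.20 [0.15 to 0.26]) at D14, and Selplg was lower (-0.47 [-0.54 to -0.40]). Spn, also under the minimum, stood at 13.2, 18.5 and 34.6 CPM in the naive, D11 and D14 libraries. Its D14 log2 ratio was 1.39 [0.98 to 1.82].

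Markers of younger neutrophils moved with these values. Ltf, Camp and Ngp, which code for secondary granule proteins made before neutrophils mature, were found (a UMI of any of the 3) in 6.47%, 27.8% and 66.0% of naive, D11 and D14 neutrophil-like cells. The largest cluster with neutrophil markers held 1080 naive, 737 D11 and 53 D14 cells, and the next 48, 501 and 685. The neutrophil cluster with the most cells was thus not the same in the naive and D14 libraries. In cells without a UMI of these genes Itga4 was 1165, 1034 and 968 CPM (D14 over naive, -0.27 [-0.36 to -0.18]), and in cells with one 810.0, 462 and 402 CPM (-1.01 [-1.18 to -0.84]). The Itgal levels were 685, 648 and 447 and 441, 410.3 and 301 CPM, and the D14 ratios -0.62 [-0.75 to -0.49] and -0.55 [-0.77 to -0.33]. The Itga4 ratio in cells with granule transcripts rests on 84 naive cells and lies at the 2-fold line, within its interval, and the difference between the subsets was not tested. In cells without them Itgam (-0.35 [-0.46 to -0.25]) and Itgb2 (-0.17 [-0.33 to -0.014]) had the opposite sign at D14 to that over all neutrophil-like cells.

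**Figure D5:**
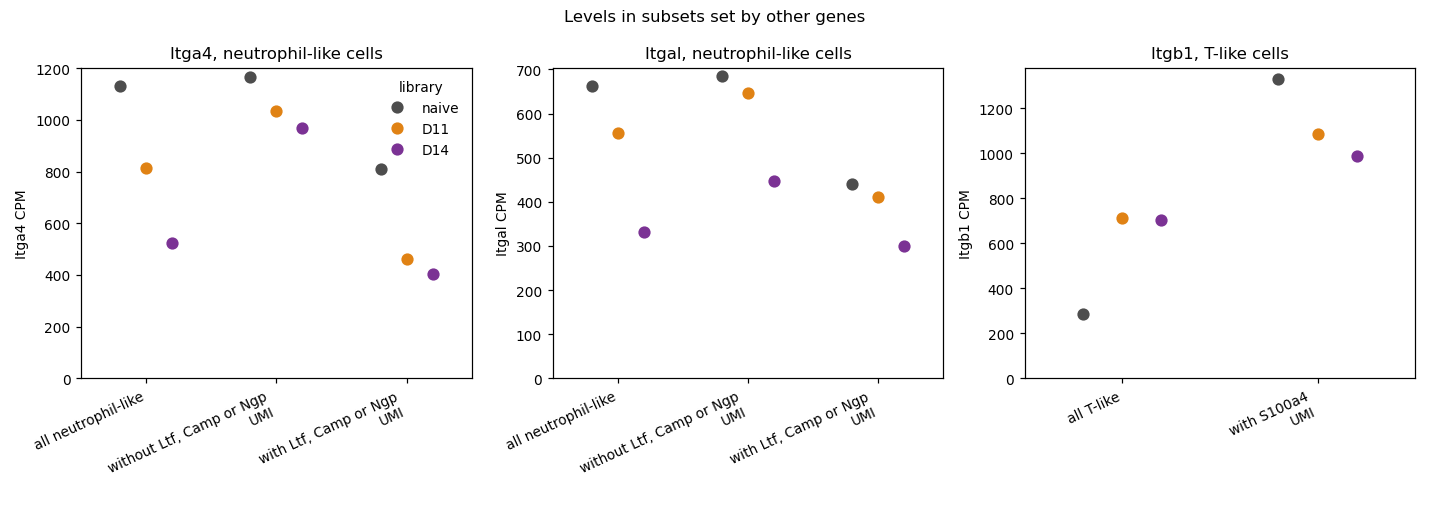
Levels in CPM (vertical axes, from 0) of Itga4 and Itgal in all neutrophil-like cells and in those without or with a UMI of Ltf, Camp or Ngp, and of Itgb1 in all T-like cells and in those with an S100a4 UMI, by library. The Itgb1 points stand at 287, 714 and 703 CPM in all T-like cells but at 1329, 1086 and 989 CPM in those with S100a4.

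In T-like cells Itgb1, the beta1 chain that is higher on memory than on naive T cells, was the only member past 2-fold, 1 of 7 at D11 (3.51% of all genes) and 1 of 7 at D14 (5.15%). It stood at 287 [277 to 297], 714 [678 to 750.1] and 703 [651 to 757] CPM, and both leukemic levels were above the naive interval and overlapped each other. On the log2 scale the ratios over naive were 1.31 [1.23 to 1.40] for D11 and 1.29 [1.17 to 1.41] for D14. It was seen in CD4 cells (with a Cd4 and no Cd8 UMI), at 304, 805 and 741 CPM, and in CD8 cells, at 222, 523 and 579 CPM, from 51 and 35 cells at D14. The makeup of the class differed, since S100a4, a gene of antigen-experienced T cells, was found in 10.6%, 46.2% and 53.9% of T-like cells and Ccr7, of naive and central memory T cells, in 80.9%, 43.4% and 40.9%. Among cells with an S100a4 UMI, Itgb1 was 1329, 1086 and 989 CPM and the log2 ratios over naive turned to -0.29 [-0.39 to -0.19] and -0.43 [-0.56 to -0.29].

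The other members differed less in T-like cells. Itga4 was lower, at 684, 548 and 441 CPM and -0.63 [-0.77 to -0.49] at D14, Spn higher, with 0.47 [0.25 to 0.69], and Itgal higher, with 0.47 [0.21 to 0.72]. At D14 the Itga4 ratio was -1.37 [-1.63 to -1.11] in CD4 cells and 0.20 [0.0081 to 0.39] in CD8 cells, a contrast that was not tested. Pecam1 was 488, 400.5 and 428 CPM.

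NK-like cells had 0 of 9 members past 2-fold at D11 (0.633% of all genes) and 0 of 8 at D14 (3.41%). At D14, from 55 cells, Pecam1 was higher (0.88 [0.41 to 1.33]) and Itgb1 lower, at 752, 648 and 473 CPM and -0.67 [-0.90 to -0.45]. The pro-B markers summed to 2.43, 4.04 and 191 CPM in NK-like cells, so that the D14 sum also held pro-B transcripts, and their part in the Pecam1 value was not tested.

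B-like cells had 0 of 3 members past 2-fold at D11 (1.16% of all genes), with Pecam1 at 622 and 451 CPM (-0.46 [-0.59 to -0.34]) and Itga4 at 834 and 736 CPM. In pro-B-like cells, which the labels do not mark as leukemic or normal, the beta2 integrin genes were low: Itgal had 0.971 and 3.66 CPM at D11 and D14, Itgam 0.647 and 2.61 and Itgb2 13.9 and 20.2. At their full depth (medians of 34735 and 33239.5 UMIs), 3.3% and 9.69% of pro-B-like cells had an Itgal UMI at D11 and D14, and a cell without one cannot be called a cell without the transcript. Compared with B-like cells of D11, 3 of 4 members were past 2-fold in CPM, against 50.8% of all genes. Selplg was higher (1.19 [0.75 to 1.66]) and Pecam1 (-1.97 [-2.15 to -1.78]) and Itga4 (-1.70 [-1.84 to -1.57]) lower. The median depth of these B-like cells was 5501 UMIs, so the lower CPM is a share of a larger total in pro-B-like cells. Per cell, pro-B-like cells of D11 had more UMIs of Pecam1 (3.92 against 2.83) and of Itga4 (7.67 against 4.61). Itgb1, with 105 against 100.3 CPM, was not apart. From D11 to D14, 0 of 4 members were past 2-fold in pro-B-like cells (1.56% of all genes). Pecam1 (0.57 [0.41 to 0.73]) and Selplg (0.58 [0.37 to 0.78]) were higher at D14 and Itga4 was not (0.038 [-0.077 to 0.15]).

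Other adhesion genes were counted from 5 lists, of 18 other integrin chains, 17 genes of integrin activation, 11 of selectins and selectin ligand synthesis, 15 of ligands and diapedesis partners (14 of them in the count tables) and 4 linkers to the cell cortex. In ncMono-like cells at D14, 1 of 4 other integrin chains over the minimum was past 2-fold higher than naive and 0 were lower, where 4.97% of all genes were past 2-fold. This was Itgb3, the beta chain of the platelet and vitronectin receptors, at 114 against 19.5 CPM (2.54 [1.94 to 3.23]). Its partner chain Itgav was lower (-0.84 [-0.99 to -0.68]). Of the integrin activation genes 0 of 13 were past 2-fold at D11 or D14, and neither were any of the 3 selectin, 2 ligand and 3 linker genes over the minimum.

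Between the monocyte classes the lists differed more. In the naive library Itgav (2.24 [1.97 to 2.51]) and Itgb5 (1.70 [1.33 to 2.07]) were past 2-fold higher in ncMono-like cells, and Itga1, a collagen receptor chain, (-4.02 [-5.25 to -3.02]) and Itgb7 (-1.27 [-1.66 to -0.90]) lower, which accounts for all 4 other integrin chains over the minimum. These 4 were called in the same directions at D11 and D14. Of 14 activation genes, 3, 3 and 2 were higher and 0 lower, which is near or below the shares of all genes past 2-fold in these comparisons (18.6%, 15.5% and 21%). One of them was Fyb (an adaptor of integrin activation), higher in each library with 1.06 [0.98 to 1.14], 1.32 [1.26 to 1.39] and 1.56 [1.49 to 1.63]. Msn, whose product moesin links the sialomucin tails to actin, was past 2-fold in the naive and D11 libraries (1.08 [0.96 to 1.19] and 1.08 [0.99 to 1.16]) and not at D14 (0.92 [0.85 to 0.995]).

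In neutrophil-like cells Cd177, a neutrophil receptor that binds PECAM-1, was 63.0 CPM in naive blood and 219 and 579.7 CPM on the leukemic days (D14 ratio 3.20 [3.03 to 3.38]), and was 1 of 2 ligand genes over the minimum, where 15.7% of all genes were past 2-fold. Of 6 selectin genes at D14, Cd24a (1.18 [1.08 to 1.27]) was past 2-fold higher and 0 were lower by that much. Cd177 went the other way in cMono-like cells at D14. There it was past 2-fold lower than naive, as 1 of 3 ligand genes over the minimum, against 6.18% of all genes. In T-like cells Cd44, a hyaluronan receptor of memory T cells, and Itgae, the alpha chain of the E-cadherin receptor, were past 2-fold higher at D11 (1.32 [1.16 to 1.48] and 2.06 [1.84 to 2.28]) and at D14 (1.02 [0.79 to 1.25] and 1.81 [1.51 to 2.11]), each the only gene of its list to be so, against 3.51% and 5.15% of all genes.

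Over the 21 class-by-library sums, the genes most like each member were named by Pearson's r of log2(CPM + 1) among 6827 genes, as a description over sums that share libraries and classes. The gate markers, Cd4, Cd8a and Cd8b1 were left out of the ranking. Nearest to Pecam1 were Heg1 (r = 0.963), Acp5 (0.937) and Smc6 (0.926). Itgb1 was the nearest of the ranked genes to Spn (0.937). Itgam was nearest to Fcer1g (0.983), Apobr (0.98) and Tyrobp (0.98), Itgal and Itgb2 both had Myo1f among their 3 (0.979 and 0.972), and Itga4 was nearest to Gpatch2l (0.984). Selplg was nearest to Arrb2 (0.971), Itgax to Cd244a (0.901) and Itgb1 to Cd48 (0.972). Among the members, Itgal and Itgb2, the chains of LFA-1, had r = 0.956, and Itga4 and Itgb1, those of VLA-4, 0.793. The VLA-4 value was not particular to the pair, since Itga4 had a higher r with Itgb2 (0.854), Selplg (0.819) and Itgal (0.810). The 21 sums include the erythroid-like sums of D11 and D14, in which every member was low. How far these sums shape the r values was not tested.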

How the data were processed

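PB samples were profiled with 10x Genomics 3′ v3 reagents in 3 libraries (naive, D11 and D14). The authors deposited filtered matrices of raw UMI counts per gene and barcode, without normalization. The submitters' notes name Cell Ranger 7.1.0 and mm10, whereas the matrix headers name version 5.0.1. Groups follow the sample labels.

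Barcodes under 200 detected genes or over 10% mitochondrial UMIs were dropped. A cell was given the class whose marker panel had the largest share of genes with a UMI, if at least 3 markers were found and the next panel was at least 0.2 lower. A B-like cell needed 2 mature B markers, and a cell with 3 pro-B markers was not called B-like. Cells near 2 panels (138, 172 and 250), which include doublets, and cells with too few markers (160, 269 and 641) were left out of every class. UMIs were summed per class and library where there were at least 50 cells, giving sums of 408385 to 19944504 UMIs, and scaled to CPM. A gene was called at 2-fold either way when its mean was at least 50 CPM over the 2 sums. Intervals are exact Poisson for levels, exact conditional binomial for ratios and Clopper-Pearson for shares (scipy 1.17.1), all at 95%. UMIs are not independent of cell sampling, so intervals cover counting error only. Shares of cells used 1 seeded draw of 1000 UMIs per cell, or of 3000 where this is stated.

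The genes named were the 9 members, some of the listed genes past 2-fold in monocyte classes (with a few in other classes, named after their values were seen) and, per member, the 3 genes with the highest correlation, of which 1 to 3 are printed. The members and lists were chosen with earlier results of these data known, and the gate margin was settled with the members' values in view. Alternatives were all barcodes, stricter filters, removal of Scrublet doublets (0.8% per 1000 cells), 1 more marker, Leiden clusters (scanpy 1.11.5, leidenalg 0.10.2), TMM factors (edgeR 4.0.16) and DESeq2 1.42.0 size factors, no ribosomal, mitochondrial or hemoglobin genes, mean per-cell CPM, other minimums and folds, and other thinning. A margin of 0.3 and subsets of neutrophil-like, T-like and ncMono-like cells were added after seeing the data. The gates, calls and intervals were tested on simulated data. The simulated cells held the markers of 1 panel over an even, low background, and the simulated sums were Poisson draws. Doublets and transcripts from other classes were not simulated, so how the gates handle them was not tested. Promoter windows for Pecam1, Selplg, Itgal and Itgb2 were not used here, and 1 gene of the selectin list is not reported here.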

Additional observations from a re-analysis of the deposited data

Results flagged for a closer look

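Between pairs of classes, 13 differences in the log2 ratio over naive were at least 1 with ratios of opposite sign and intervals that both left out 0, and they concern 5 genes. None of these differences was tested, since each class had 1 library per condition. For Pecam1, the ncMono-like ratio exceeded that of T-like cells by 1.47 and that of B-like cells by 1.65 at D11. At D14 it exceeded that of T-like cells by 2.71, and the NK-like ratio, from 55 cells, exceeded that of T-like cells by 1.07. For Itgax the ncMono-like ratio at D11 was 1.96 above the neutrophil-like one. For Itgb1 the T-like ratio at D11 was 1.49 above the cMono-like and 1.53 above the NK-like one, and at D14 it was 1.96 above the NK-like one. For Itgal at D14 the neutrophil-like ratio was 1.25 below that of ncMono-like and 1.47 below that of T-like cells. For Itga4 at D14 the ncMono-like ratio was above those of cMono-like cells by 1.01, of neutrophil-like cells by 1.51 and of T-like cells by 1.02.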

How the results depend on the processing

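No paired analysis was possible because each condition had 1 library. For the same reason no replicate could be left out. Of 224 counts of members past 2-fold under an alternative, 192 were within 1.5 times the count given and 32 were not. The ncMono-like count at D11 (2) was 1 with a minimum of 200 CPM, and at D14 (1) it was 2 at 1.5-fold. Pecam1 in ncMono-like cells kept its direction and stayed past 2-fold under each class, filter and scaling alternative run. The cMono-like count at D14 (1) was 0 with all barcodes, Leiden clusters, a margin of 0.3, DESeq2 size factors or a minimum of 200 CPM, and 2 at 1.5-fold. The neutrophil-like count at D11 (0) was 1 with no minimum or at 1.5-fold. At D14 (1) it was 0 with TMM, DESeq2 or per-cell scaling, 2 with all barcodes, 1 more marker, a margin of 0.3 or 1.5-fold, and 3 with a minimum of 20 CPM or none. NK-like cells at D14 (0) gave 1 with a minimum of 20 CPM or none and 2 at 1.5-fold. T-like cells (1 at each time) gave 2 with no minimum, and at D14 also 2 at 1.5-fold. With no minimum B-like cells (0) gave 2 and pro-B-like cells between D11 and D14 (0) gave 3. The naive ncMono-like over cMono-like count (5) was 3 with Leiden clusters, TMM or a minimum of 200 CPM. Pro-B-like over B-like (3) gave 6 with a minimum of 20 CPM and 7 with none. In T-like cells with an S100a4 UMI the Itgb1 ratio turned to -0.29 at D11 and -0.43 at D14. The cause of these changes was not tested. Scaling by TMM or DESeq2 moved the median of all genes by 0.198 and 0.196 in neutrophil-like cells at D11, by -0.146 and -0.108 in T-like cells at D14 and by -0.192 and -0.161 between naive monocyte classes. The margin and the subsets were chosen after seeing the data. Depth limits the genes with few UMIs, such as Itgax in cMono-like cells, and the NK-like sum of D14.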
